A study of Mus musculus with 12 samples.

Results

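Cluster 19 was 1 of 3 clusters that the authors labelled as neurons in a single-cell RNA-seq series of mouse hippocampus. Its members were the cells with the authors' cell type Neuron and their cluster number 19, which gave 136 cells of 1074 neurons (12.7%) and of 19834 cells in all. Clusters 10 and 12 held the other 516 and 422 neurons. The tissue came from 9-week-old female C57/BL6J mice injected with phosphate-buffered saline (PBS) or with the DNA-crosslinking platinum drug cisplatin, as a model of chemotherapy-related cognitive impairment. From the first injection some mice of each arm received 40 Hz sound pulses and light flicker for 1 h a day over 21 days, and hippocampi were collected on day 22. The 2 PBS groups (PBS nonstim and PBS stim) and the 2 drug groups (Cisplatin nonstim and Cisplatin stim) had 3 libraries each. Replicate 1 of each group held the 2 hippocampi of 1 animal, and replicates 2 and 3 each pooled 4 hippocampi of 2 animals. Library names start with D20 for replicate 1, here the first set or prefix 20, and with D21 for the others, here the second set or prefix 21.

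The given neuronal markers were present in the cluster. Meg3, a long noncoding RNA of neurons, had a unique molecular identifier (UMI) in 92.6% of its cells, Snhg11, a noncoding host transcript, in 93.4% and Syt1, a calcium sensor of synaptic vesicles, in 77.2%. These 3 genes did not set it apart from cluster 12, where they were found in 99.3%, 84.4% and 80.6% of cells. In cluster 10 they were rarer, at 9.50%, 6.01% and 42.4%. The set of genes that set it apart from both was that of Cajal-Retzius cells, and the cluster is called Cajal-Retzius-like below. The authors' earlier label of these cells was Excitatory for 130 of 136, an oligodendrocyte label for 1 and none for 5.

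Cajal-Retzius cells are early-born neurons of the outermost layer of the cortex and hippocampus. They secrete reelin, an extracellular glycoprotein that binds lipoprotein receptors on migrating neurons and on dendrites, and so helps to order cell layers and synapses. Most of them die after birth in the neocortex, while in the hippocampus many persist along the hippocampal fissure and the outer dentate gyrus, where they release glutamate. They depend during development on the p53 family member Trp73, and they carry LIM homeodomain factors and the chemokine receptor Cxcr4.

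Promoter windows of 3 of these identity genes are shown because the genes stood together in the cluster and mark its secreted protein, its transmitter and its migration receptor. Each is the 250 bases before a RefSeq start in the build GRCm38.p6, 5′ to 3′ on the gene's strand, with capitals for matches to CANNTG, the E-box bound by basic helix-loop-helix factors such as Nhlh2, and to TAAT on either strand, the core bound by homeodomain factors such as Lhx1 and Lhx5. The Reln window lies at chr5:22344706-22344955 on the minus strand, the window of the first of 2 Slc17a6 starts at chr7:51621580-51621829 on the plus strand and the Cxcr4 window at chr1:128592300-128592549 on the minus strand.
Reln: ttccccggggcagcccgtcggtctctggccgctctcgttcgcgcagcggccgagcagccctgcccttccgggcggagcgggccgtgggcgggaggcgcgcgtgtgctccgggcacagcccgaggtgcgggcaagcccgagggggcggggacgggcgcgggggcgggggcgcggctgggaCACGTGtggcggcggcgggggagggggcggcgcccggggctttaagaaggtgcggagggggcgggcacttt
Slc17a6: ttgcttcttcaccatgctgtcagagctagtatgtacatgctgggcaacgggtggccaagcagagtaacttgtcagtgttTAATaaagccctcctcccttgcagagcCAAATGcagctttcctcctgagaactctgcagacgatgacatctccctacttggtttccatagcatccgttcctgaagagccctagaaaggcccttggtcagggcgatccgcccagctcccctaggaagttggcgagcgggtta
Cxcr4: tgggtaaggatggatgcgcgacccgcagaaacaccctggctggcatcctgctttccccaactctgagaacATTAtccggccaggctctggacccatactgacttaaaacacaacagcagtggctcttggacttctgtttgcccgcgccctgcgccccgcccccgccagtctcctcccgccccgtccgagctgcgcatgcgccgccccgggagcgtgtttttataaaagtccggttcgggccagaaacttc
The Reln window held 1 E-box, the Slc17a6 window 1 of each motif and the Cxcr4 window 1 homeodomain core. Over the 10 of 13 Cajal-Retzius genes matched in the RefSeq table, 7 of 12 start sites held CANNTG, which 66.2% of all 32851 windows of this length hold. TAAT was in 5 of 12, against 54.9% of all windows. Both strands were searched and matches could overlap. These are letter matches and not measured binding.

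Levels are counts scaled to a common total (CPM), taken over the summed UMIs of a cluster in a library and given as a mean ± SD over the 7 libraries with at least 5 cells of cluster 19. These were PBS nonstim 1, 2 and 3, PBS stim 2 and 3, Cisplatin nonstim 1 and Cisplatin stim 1, with 483181 UMIs in cluster 19 and 2671211 in the other neurons. Because the authors clustered the cells on their expression, a difference between clusters is a description, with no test. A gene is called higher or lower here when its mean CPM differed at least 2-fold from the other neurons. The difference also had to be on the same side in 7 of 7 libraries. The other neurons are clusters 10 and 12 together, and elsewhere refers to them below. Of 8203 genes at 20 CPM or more in either part, 460 (5.61%) were higher and 1091 (13.3%) lower, and the median log2 ratio was 0.14. Of the 13 genes of the Cajal-Retzius list, 11 were higher and 0 lower, with a median log2 ratio of 7.68 on log2(CPM + 1) and of 7.39 on pooled CPM with genes under 3 UMIs set to 3. This list named the cluster, so its count describes the choice and is no further evidence.

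Reln itself stood at 3182, 2607 and 2053 CPM in PBS nonstim 1, 2 and 3, at 2247 and 3135 in PBS stim 2 and 3, at 4138 in Cisplatin nonstim 1 and at 4563 in Cisplatin stim 1. The other neurons had 7.93 ± 12.7 CPM (SD, n = 7). Ndnf, a secreted factor with a fibronectin type III domain, stood at 4348, 4170, 3620, 4712, 4304, 5199 and 4668 CPM in the same order, against 2.05 ± 3.63. No library of either gene in cluster 19 came near the other neurons, as the plot of identity genes shows. Outside the neurons, Ndnf was at 227 CPM in pooled endothelial cells and 134 in pericytes, against 4203 in cluster 19.

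**Figure D1:**
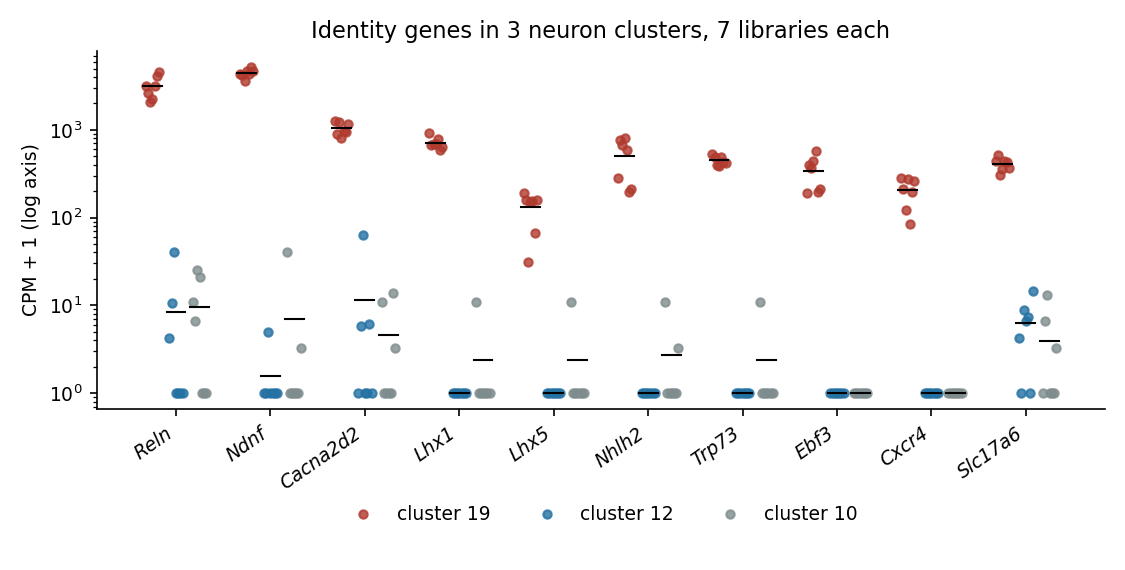
Levels of 10 identity genes in the 3 neuron clusters, with genes on the x axis and CPM + 1 on a log y axis. Each point is 1 of 7 libraries and each line is their mean, and the points of cluster 19 lie above those of clusters 12 and 10 for every gene drawn.

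The transcription factors of the list were divided between the clusters in the same way. Lhx1, a LIM homeodomain factor, had 706 ± 109 CPM against 0.352 ± 0.931 (SD, n = 7), with a single UMI in the other neurons. Its relative Lhx5 had 129 ± 58.1 CPM, from 30.4 in PBS nonstim 3 to 189 in PBS nonstim 1. Trp73 had 448 ± 56.0 CPM, from 381 to 536, and 1 UMI in the other neurons. Outside the neurons, Trp73 was at 65.6 CPM in pooled ependymal cells and 12.7 in choroid plexus cells. Nhlh2, a basic helix-loop-helix factor, had 504 ± 268 CPM, with 284, 195 and 210 in the 3 first-set libraries and 590 to 817 in the second set. Ebf3, an EBF family factor, had 337 ± 145 CPM and 0 UMIs in the other neurons, at least 348-fold higher when their 0 is set to 3 UMIs over all 7 libraries. Ebf3 was likewise at 189 to 210 CPM in the first set and 365 to 569 in the second, so both factors split by set.

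Among receptors and transporters, Cxcr4, the receptor of the chemokine Cxcl12, had 204 ± 77.5 CPM and 0 UMIs in the other neurons, at least 168-fold higher. In pooled cells of other types, Cxcr4 was at 135 CPM in ependymal cells, 84.4 in immune cells and 41.0 in progenitors, against 175 in cluster 19. Slc17a6, the vesicular glutamate transporter VGLUT2, had 408 ± 69.9 CPM against 3.95 ± 2.84. Cacna2d2, a calcium channel alpha2delta subunit, had 1041 ± 173 CPM against 8.92 ± 17.2. Clstn2, a synaptic calsyntenin, was higher as well, at 479 ± 110 against 73.0 ± 25.8. The 2 members of the list that missed the rule were Calb2 (calretinin), at 0 CPM in PBS nonstim 1 and 108 to 673 in the other 6 libraries, and Samd3, at 0 in 2 of 7 libraries. Gene positions in mm10 (GENCODE vM21) are chromosome 5, 21884454 to 22344702 for Reln, chromosome 6, 65671590 to 65712326 for Ndnf, chromosome 11, 84518284 to 84525535 for Lhx1 and chromosome 4, 154056253 to 154140208 for Trp73.

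Further genes with the highest ratios had not been listed for this cell type. Shisal2b had 263 ± 61.3 CPM, Cd274 (PD-L1, a ligand of the T-cell receptor PD-1) 230 ± 46.7, Eln (elastin) 259 ± 149 and Tmem163, a zinc transporter, 283 ± 56.9, each against under 2 CPM in the other neurons. Gdf5, a ligand of the bone morphogenetic protein family, had 121 ± 59.1 CPM and 0 UMIs in the other neurons. The neuropeptide precursor Pnoc had 48 UMIs in the cluster and 0 in the other neurons. Cspg4 and C1ql1, from the oligodendrocyte precursor list, were higher (107 and 91.4 CPM against 2.94 and 5.08), while that list's Olig1 was at 14.8 against 23.5. Of 8 astrocyte genes at 20 CPM or more, 0 were higher and 8 lower, with summed levels of 106 to 892 CPM against 1657 to 2892 in the other neurons. The summed level of the other neurons lay mostly in cluster 10: the glutamate transporter Slc1a2 had 247 CPM in cluster 19, 308 in cluster 12 and 3138 in cluster 10, and the glycolytic enzyme gene Aldoc 66.6, 44.9 and 974 CPM. The bicarbonate transporter gene Slc4a4, at 26.7, 271 and 232 CPM, was lower than in both.

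The same genes were read in single cells. Reln had a UMI in 128 of 136 cells (94.1%, 95% exact interval 88.7 to 97.4%) and in 82.2% of 129 cells thinned to 1000 UMIs. It was found in 2.61% of cells in cluster 12, 0.969% in cluster 10 and 0.300% of 1000 microglia, with median depths of 3652.5, 3403.5, 2927.5 and 6126 UMIs for cluster 19, cluster 12, cluster 10 and microglia. Ndnf was found in 92.6% of cluster 19 cells (87.6% thinned), Lhx1 in 74.3% (45.7%), Trp73 in 69.1% (40.3%), Nhlh2 in 61.0% (30.2%), Cxcr4 in 40.4% (15.5%) and Lhx5 in 31.6% (12.4%). Ebf3 was found in 52.9% (24.8%), but it was also found in 12.2% of microglia (2.27% thinned), a share far above the 0 of 422 cells in cluster 12 and 0 of 516 in cluster 10. Intervals cover counting error only.

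Of 9 identity genes (Reln, Trp73, Lhx1, Lhx5, Ndnf, Cacna2d2, Ebf3, Nhlh2 and Cxcr4), a cell of cluster 19 had a median of 6, being 5 in the first set and 7 in the second. At least 4 were found in 122 of 136 cells and in 7 of 19698 cells outside the cluster. Of those 7, 2 were ependymal cells, 1 lay in cluster 10 and 0 in cluster 12. Another 6 cells of cluster 19 had 0 of the 9 genes, at 888 to 1784 UMIs. They were 2 cells of PBS nonstim 1, 1 each of PBS stim 1 and PBS stim 3, and both cells of Cisplatin nonstim 3. The cluster's cells in Cisplatin nonstim 3 thus had no UMI of an identity gene.

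**Figure D2:**
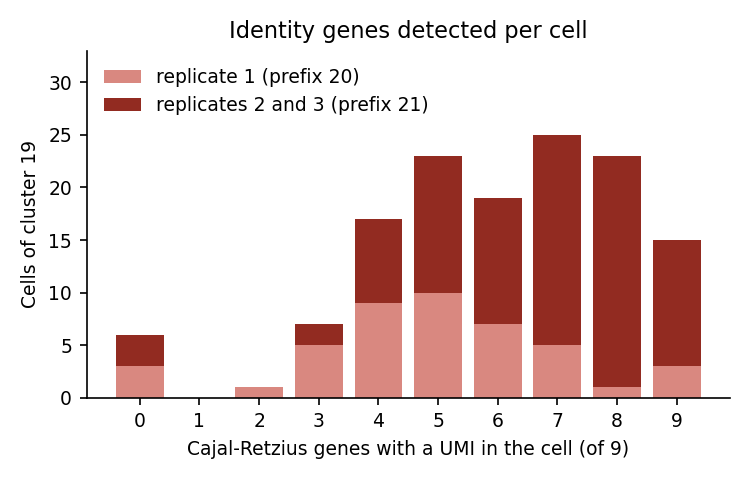
Number of the 9 identity genes with a UMI (x axis) against the number of cells of cluster 19 (y axis), with the first set (replicate 1, prefix 20) and the second set (prefix 21) stacked. The 6 cells at 0 stand apart from 130 cells with 2 or more.

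Of the markers of glutamate release, Slc17a6 was found in the cluster and Slc17a7 was rare. Markers of GABA release were rare or not detected at this depth. Gad2, which makes GABA, and Slc32a1, which loads it into vesicles, were found in 0 of 136 cells, which at 3 counts allows a share of cells with a UMI of up to 2.21% and does not bound the share that express the gene. Gad1, the other GABA-making enzyme, was found in 2 cells (1.47%), against 21.6% in cluster 12 and 0.500% in microglia. Slc17a7 (VGLUT1), the main glutamate transporter of pyramidal and granule neurons, was found in 3 cells (2.21%), against 76.1% in cluster 12, 54.5% in cluster 10 and 12 of 1000 microglia. Slc17a6 was found in 58.8% of cluster 19 cells, against 2.37% and 1.36% in clusters 12 and 10. By marker UMIs, 82 cells (60.3%) had more glutamatergic than GABAergic counts, 1 the reverse and 53 neither. The glutamatergic share was 33.3% in cells thinned to 1000 UMIs. Unthinned, it was 74.9% in cluster 12 and 52.1% in cluster 10. Of 9 genes listed for glutamatergic neurons at 20 CPM or more, 2 were higher and 5 lower, with a median log2 ratio of −1.87.

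Genes of dentate granule and CA1 pyramidal cells were mostly lower, and those of other principal neurons were less uniform. Of 10 dentate granule cell genes at 20 CPM or more, 8 were lower and 0 higher, Prox1, their homeodomain factor, at 17.8 ± 25.3 against 191 ± 64.6 CPM (SD, n = 7). The granule list's Pdzd2, a PDZ domain protein, missed the rule and was above the other neurons in 6 of 7 libraries (368 ± 154 against 69.6 ± 12.6). Of 5 CA1 pyramidal genes, 4 were lower and 0 higher, of 5 in the CA3 and mossy cell list 1 was lower and 0 higher, and of 5 in the subiculum and deep layer list 2 were lower and 0 higher. Among general neuronal genes, Rbfox3, which encodes the NeuN antigen, had 2 UMIs in cluster 19 and 352 ± 139 CPM elsewhere, and Nrgn, a postsynaptic calmodulin-binding protein, had 21.1 ± 22.9 against 1645 ± 477. Stmn2, a microtubule regulator of growing axons, was higher, at 849 ± 290 against 112 ± 32.3. The T-box factor Tbr1, Zic1 and Lhx2 were also higher (196, 144 and 137 CPM against 19.5, 3.53 and 43.4). Sox4, Stmn1 and Tubb2b of the immature neuron list were higher, and that list's Neurod1 was lower. Genes at 0 UMIs in cluster 19 included C1ql3, a secreted synaptic organizer (903 ± 398 CPM elsewhere), the kinase Ptk2b (353 ± 67.1), the transcription factor Bcl11b (280 ± 65.9) and the endocannabinoid-degrading enzyme Faah (190 ± 41.8). Each of these was higher in cluster 12 than in cluster 10, with C1ql3 at 1239 and 425 CPM and Faah at 297 and 29.1.

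Receptors of glutamate and GABA were low. Of 8 NMDA and metabotropic glutamate receptor genes at 20 CPM or more, 6 were lower and 0 higher, with a median log2 ratio of −6.12, or −3.78 with genes under 3 UMIs set to 3. Grin2a, an NMDA receptor subunit, had 1 UMI in cluster 19 (6.65 CPM in PBS nonstim 2 and 0 in the other 6 libraries) against 652 ± 140 CPM elsewhere. By cluster, Grin2a was at 986 CPM in cluster 12 and 165 in cluster 10. Grin2b had 22.2 ± 29.7 against 1177 ± 358, and the obligate subunit Grin1 84.0 ± 30.5 against 288 ± 57.6 CPM. The metabotropic receptor Grm7 had 0 UMIs and Grm5 had 1. Of 14 AMPA and kainate genes, 9 were lower and 0 higher, among them Gria1 (165 ± 44.6 against 695 ± 162) and Gria3 (2 UMIs against 973). Gria2 did not meet the rule, at 1125 ± 698 against 2146 ± 438, and Gria4 was above the other neurons in 6 of 7 libraries (131 ± 81.4 against 31.0 ± 28.7). Of 12 GABA-A receptor genes, 9 were lower and 0 higher. Of 18 postsynaptic scaffold and plasticity genes, 14 were lower and 0 higher, including Camk2a (130 against 1638 CPM), Dlgap1 (8.62 against 704) and Ppp3ca (179 against 2173).

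Ion channel and release genes were mixed. Of 24 potassium channel genes, 9 were lower and 1 was higher, the delayed rectifier subunit Kcnb2 at 423 ± 55.6 against 38.8 ± 17.2 CPM. Of 15 calcium channel genes, 6 were lower and 1 higher (Cacna2d2), and of 11 sodium channel genes 5 were lower and 0 higher. Of 29 vesicle and release genes, 11 were lower, among them Snap25 (297 ± 136 against 683 ± 120), and Syt4 was higher (269 ± 79.2 against 117 ± 23.8). Adhesion and axon guidance genes were higher in 4 of 24 and 3 of 21, and lower in 8 and 9. The higher ones included Cntnap2, a neurexin-like protein of axons (459 ± 57.0 against 28.7 ± 18.5), the Slit receptor Robo2 (537 ± 132 against 84.2 ± 32.4) and the growth-cone protein Gap43 (609 ± 358 against 94.6 ± 30.4).

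Immediate early genes, which neurons switch on within minutes of activity or stress, divided into both directions. Of 22 at 20 CPM or more, 10 were higher and 6 lower. Fos, which pairs with Jun proteins in AP-1, stood at 851, 1057 and 532 CPM in PBS nonstim, 912 and 1428 in PBS stim, 585 (Cisplatin nonstim 1) and 944 CPM (Cisplatin stim 1), against 86.5 ± 32.7 elsewhere (SD, n = 7). Fosb (274 ± 105 against 53.6 ± 19.5), Jun (673 ± 245 against 228 ± 89.1), Ier2 (197 against 8.93) and the phosphatase gene Dusp1 (223 against 17.3) were also higher. By contrast Bdnf, a neurotrophin, Arc, which regulates AMPA receptor traffic, and the zinc finger factor Egr3 had 0 UMIs in cluster 19 and 124 ± 46.6, 45.4 ± 33.8 and 87.7 ± 18.5 CPM in the other neurons. Set to 3 UMIs, the 0 corresponds to 6.21 CPM. Npas4, a factor induced by calcium entry, was lower (16.0 ± 25.8 against 87.5 ± 45.5), as were Egr4 and Nr4a3, with 1 UMI each. Of 13 heat shock genes, 4 were higher (Hspa8, Hsp90aa1, Hsp90ab1 and Bag3) and 0 lower. The tissue was perfused cold and dissociated with an enzyme kit, and the part of these steps in the levels was not tested.

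**Figure D3:**
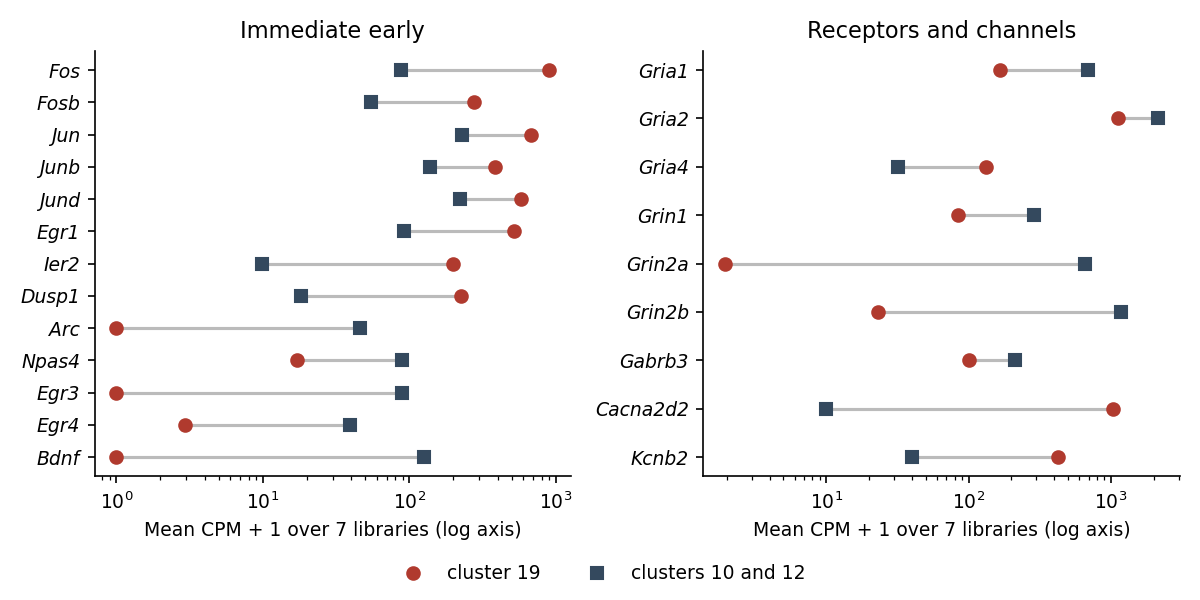
Mean CPM + 1 over 7 libraries on a log x axis for chosen immediate early genes (left) and receptor and channel genes (right), in cluster 19 (circles) and in clusters 10 and 12 together (squares). Fos to Dusp1 lie to the right in cluster 19, while Arc, Egr3 and Bdnf sit at 0 CPM there and Grin2a near it.

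The state of the RNA differed between the sets. In cluster 19 the median share of UMIs from the 13 mitochondrially encoded genes was 16.2% in the first set and 2.62% in the second. Unspliced molecules made up 71.2% and 36.8%, and median depth was 1848.5 and 4569 UMIs. By library, the mitochondrial median was 15.1% in PBS nonstim 1, 16.7% for Cisplatin nonstim 1 and 19.2% for Cisplatin stim 1, and 2.31 to 3.12% in the 4 second-set PBS libraries. The unspliced median was 67.3 to 73.5% in those 3 libraries and 33.9 to 44.8% in those 4. The sets did not overlap in either measure among libraries with 5 or more cells. Cluster 12 had 14.7% and 13.4% mitochondrial UMIs and 69.2% and 78.7% unspliced molecules in the first and second set. Cluster 10 had 44.0% and 21.4% mitochondrial UMIs, and 5.11% and 6.04% unspliced molecules. The nuclear transcript Malat1 followed the set in cluster 19, at 136785 to 216309 CPM in the 3 first-set libraries and 62754 to 84688 in the second. Ribosomal protein genes made up 3.70% of UMIs in PBS nonstim 1 and 3.92% in Cisplatin stim 1, and 9.48 to 13.6% in the second-set PBS libraries, with Cisplatin nonstim 1 in between.

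**Figure D4:**
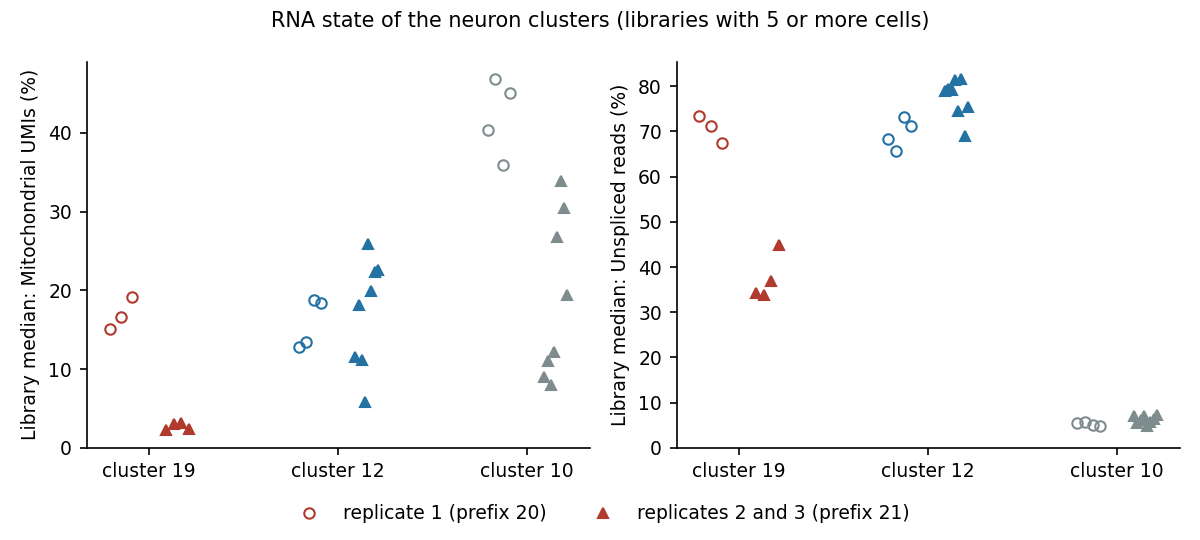
Library medians of the mitochondrial share of UMIs (left, %) and of the unspliced share (right, %) for the 3 neuron clusters, for libraries with 5 or more cells of the cluster. Open circles are replicate 1 libraries and filled triangles replicates 2 and 3, and in cluster 19 the open circles lie above every triangle in both plots.

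Cluster 19 cells were few in cisplatin libraries of the second set. They numbered 16 of 86, 33 of 140 and 12 of 93 neurons in PBS nonstim 1, 2 and 3 (18.6, 23.6 and 12.9%) and 2 of 69, 15 of 78 and 24 of 88 in PBS stim (2.90, 19.2 and 27.3%). Cisplatin nonstim had 19 of 101, 1 of 77 and 2 of 60 (18.8, 1.30 and 3.33%), and Cisplatin stim 7 of 192, 1 of 51 and 4 of 39 (3.65, 1.96 and 10.3%). In the second set the 4 cisplatin libraries (4.21 ± 4.12%, SD) all lay below the 4 PBS libraries (20.7 ± 6.17%), while in the first set the arms overlapped, with means of 11.2% and 10.8% over 2 libraries each. Over all 12 libraries the share was 6.55 ± 6.80% with cisplatin and 17.4 ± 8.61% with PBS (SD, n = 6 each). The difference of −10.9 percentage points did not pass, with a two-sided exact permutation p = 0.0556 over 144 arrangements within stimulation and set, where 0.0139 is the smallest possible. In the second set alone, chosen after seeing the data, it was −16.5 points with an exact permutation p = 0.0556, the smallest that set allows.

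As a percent of all cells the difference was −0.489 points and passed (0.382 ± 0.365 against 0.870 ± 0.353%, n = 6 each, exact permutation p = 0.0417). It passed as well without PBS stim 1 (−13.8 points, exact permutation p = 0.0278) and without Cisplatin nonstim 1 (−13.3 points, exact permutation p = 0.0278). As a percent of clusters 12 and 19 together it was −8.80 points (exact permutation p = 0.181), and among neurons of at most 10% mitochondrial UMIs −11.0 points (exact permutation p = 0.250). The other neuron clusters shifted as well. Cluster 10 made up 23.1 to 29.3% of neurons in second-set PBS libraries and 46.8 to 80.4% in second-set cisplatin libraries. Cluster 12 made up 1.55 to 2.97% and 0.907 to 1.89% of all cells in the same libraries. The part of these shifts in the share of cluster 19 was not tested. In the second set the ribosomal RNA-like share of all UMIs ranged over PBS libraries from 1.87 to 3.65% and over cisplatin libraries from 0.417 to 0.782%, and its part in the share of cells was not tested. Fewer cells in the tissue and fewer cells recovered by dissociation cannot be told apart here. Stimulation gave 10.9 ± 10.3 against 13.1 ± 9.03% (SD, n = 6 each), a difference of −2.21 points with an exact permutation p = 0.625. In the second set alone its sign turned, at 4.40 points (exact permutation p = 0.278).

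**Figure D5:**
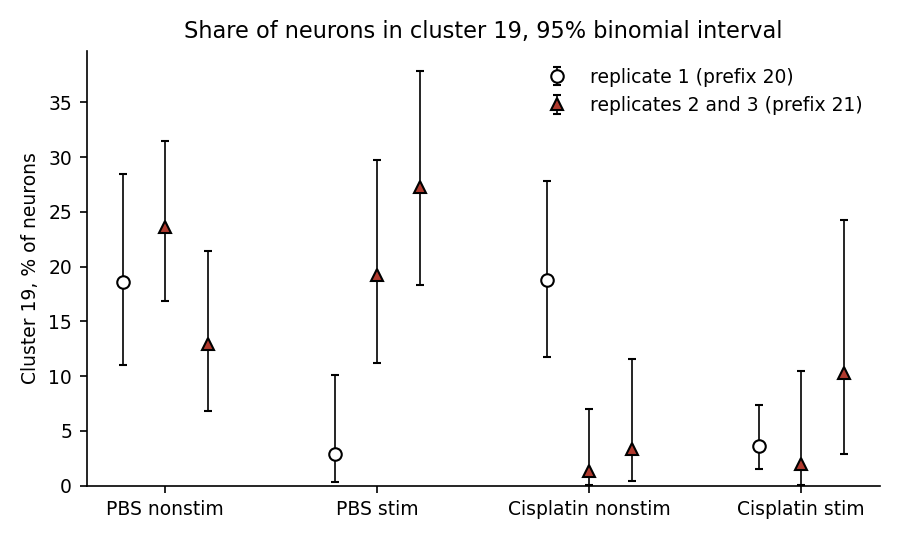
Share of neurons in cluster 19 (y axis, %) for the 3 libraries of each group in the order of replicate number, with 95% exact binomial intervals. In the second set (filled triangles) the PBS libraries lie at 12.9 to 27.3% and the cisplatin libraries at 1.30 to 10.3%, and the first set (open circles) shows no such order.

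Expression within cluster 19 was tested over the 7 libraries with at least 5 of its cells, on 2250 genes, by edgeR's quasi-likelihood test with group and set as terms. Between PBS stim and PBS nonstim a single gene passed at an adjusted p under 0.05 (1 gene, 0.0444% of those tested). It was Egr1, an immediate early zinc finger factor, at 536, 306 and 213 CPM in PBS nonstim 1, 2 and 3 and at 613 and 817 in PBS stim 2 and 3. The groups did not overlap, and Egr1 rose by 1.38 ± 0.29 on the log2 scale (SE, edgeR adjusted p = 0.00382). With set as a term, this change rests on PBS stim 2 and 3 against PBS nonstim 2 and 3. PBS nonstim 1 and the cisplatin libraries do not enter its estimate. The call was lost without PBS nonstim 2 (log2 change 1.77, edgeR adjusted p = 0.0954). It was also lost without PBS nonstim 3 (log2 change 1.24, edgeR adjusted p = 0.176) and without PBS stim 3 (1.19, edgeR adjusted p = 0.412), where the lone PBS stim library is assumed to vary like the others. Without PBS stim 2 the count was 29 genes. In cells of at most 10% mitochondrial UMIs the change was 1.41 (edgeR adjusted p = 0.0895), with no filter on low counts 1.27 (edgeR adjusted p = 0.186) and without the set term 0.99 (edgeR adjusted p = 1.00). DESeq2 called 0 genes in this comparison, with 3 at an unadjusted p under 0.05 and a log2 change of 1.36 for Egr1. Egr1 in cluster 12 was at 216 and 141 CPM in PBS nonstim 2 and 3 and at 159 and 133 in PBS stim 2 and 3, and whether stimulation acted differently in the 2 clusters was not tested. The other 10 immediate early genes tested missed the threshold, among them Ier2 (1.36 ± 0.41, edgeR adjusted p = 0.287), Fos (0.48 ± 0.26, edgeR adjusted p = 0.702) and Jun (−0.21 ± 0.27, edgeR adjusted p = 0.871). The list's median was 0.48, against 0.01 over all genes tested.

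Averaged over both drug arms, stimulation called 10 genes (0.444%), 2 higher (0.0889%) and 8 lower (0.356%). Junb, an AP-1 subunit, rose by 1.40 ± 0.33 (SE, edgeR adjusted p = 0.0312), with levels of 441, 246 and 137 CPM (PBS nonstim) and 195 CPM (Cisplatin nonstim 1) without stimulation, and 259, 424 (PBS stim 2 and 3) and 997 CPM (Cisplatin stim 1) with it. The stimulated and unstimulated libraries overlapped. The drug part of this average is Cisplatin stim 1 against Cisplatin nonstim 1, 1 library each. These are assumed to vary like the PBS libraries. Egr1 rose by 1.35 ± 0.34 (edgeR adjusted p = 0.0336), and among drug libraries was at 282 (Cisplatin nonstim 1) and 839 CPM (Cisplatin stim 1). The genes that fell encode 6 ribosomal proteins (Rpl37a, Rpl35a, Rpl23, Rpl39, Rplp1 and Rps13), the actin-binding Tmsb4x and the membrane glycoprotein Gpm6a. A list of 77 cytosolic ribosomal protein genes, added after the values were seen, held 5 of these 6. Its median log2 change was −0.71, against −0.16 over all genes tested. Rpl37a fell by 1.32 on the log2 scale (SE 0.30, edgeR adjusted p = 0.0237), at 914, 3019 and 2570 CPM in PBS nonstim, 2220 and 2007 in PBS stim, 2036 in Cisplatin nonstim 1 and 525 in Cisplatin stim 1. The single Cisplatin stim library, of 7 cells and 3.92% ribosomal protein UMIs, was the lowest, and its part in these calls was not tested. Without PBS nonstim 3 the count was 0, without PBS nonstim 2 it was 2, without PBS stim 3 it was 18 and without PBS stim 2 it was 37. DESeq2 called 0 genes, with 34 at an unadjusted p under 0.05.

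Cisplatin against PBS, averaged over stimulation, called 4 genes (0.178%), 1 higher (0.0444%) and 3 lower (0.133%). Ramp1, a receptor activity-modifying protein of the calcitonin receptor family, rose by 2.99 ± 0.67 (SE, edgeR adjusted p = 0.00825). Its level was 126 CPM in PBS nonstim 1, and 693 and 1154 CPM in the cisplatin libraries of the same set, but the 4 second-set PBS libraries had 559 to 1475, so the arms overlapped. Nav2, a cytoskeletal regulator of neurite growth, fell by 5.08 (SE 1.07, edgeR adjusted p = 0.00462), the noncoding RNA Kcnq1ot1 fell by 1.61 (SE 0.37, edgeR adjusted p = 0.00825) and the transcription factor Zbtb20 fell by 1.66 (SE 0.39, edgeR adjusted p = 0.0121). Each of these 3 had its highest level in PBS nonstim 1, at 819, 3308 and 2426 CPM. Nav2 was at 455 CPM in Cisplatin nonstim 1, above the 200 to 335 of the second-set PBS libraries, and at 0 in Cisplatin stim 1. In Cisplatin nonstim 1 and Cisplatin stim 1, Kcnq1ot1 was at 1278 and 1731 CPM and Zbtb20 at 1127 and 944. These levels lay within the range of the PBS libraries. Both cisplatin libraries belong to the first set, where PBS nonstim 1 was the sole PBS library with enough cells, so these calls rest on it. Without the set term Ramp1 was at 0.13 (edgeR adjusted p = 0.933), Zbtb20 at −0.26 (edgeR adjusted p = 0.864) and Nav2 at −3.45 (edgeR adjusted p = 0.370), and Kcnq1ot1 turned to 0.14 (edgeR adjusted p = 0.934). In cells with at least 2 of the 9 identity genes Zbtb20 also missed the threshold (−1.08, edgeR adjusted p = 0.341). The count was 1 without PBS nonstim 3 and 9 without PBS stim 2, and DESeq2 called 0 genes, with 22 at an unadjusted p under 0.05.

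No identity gene was among the genes called in these comparisons. For the drug the log2 changes were 0.23 ± 0.36 for Reln, −0.05 ± 0.35 for Ndnf, −0.77 ± 0.46 for Lhx1 and −0.43 ± 0.54 for Trp73 (SE). Simulated 4-fold changes in 200 genes were recovered for 97 in the drug comparison and for 199 between PBS stim and PBS nonstim. For 2-fold changes the numbers were 10 and 95. Here and for the interaction below, changed genes were drawn at or above the median level. All genes had the same dispersion and no effect of the set, so recovery of lower or more variable genes was not simulated. Of 11 immediate early genes and 4 p53 targets tested, from lists of 24 and 21, 0 were called for the drug. Of all 2250 genes 0.178% were called, so a count of 0 says nothing particular about these lists. Cdkn1a, the p53-induced cell cycle inhibitor, was at 94.5, 46.6 and 30.4 CPM in PBS nonstim, 13.6 and 10.3 in PBS stim 2 and 3, 0 in Cisplatin nonstim 1 and 52.5 in Cisplatin stim 1.

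Whether the drug effect in cluster 19 differed from that in the other neurons was tested as an interaction over 6468 genes, and 1 gene (0.0155%) was called. Cnr1, the cannabinoid receptor, had a log2 difference of −5.59 ± 1.21 between the effects (SE, edgeR adjusted p = 0.0229), with 410, 59.9 and 60.8 CPM in PBS nonstim, 150 and 155 in PBS stim, 108 in Cisplatin nonstim 1 and 52.5 in Cisplatin stim 1 for cluster 19. In the same order the other neurons had 7.39, 90.1, 62.2, 47.2, 28.7, 53.6 and 22.5 CPM. In the first set the cluster was lower with the drug while the other neurons were higher, from 3 UMIs in PBS nonstim 1, so both enter the difference. Within cluster 19 alone the drug change of Cnr1 was −3.20 ± 0.86 (SE, edgeR adjusted p = 0.0729). The interaction call was lost without each of PBS nonstim 2, PBS nonstim 3, PBS stim 2, PBS stim 3 and Cisplatin stim 1, and with cluster 12 alone as the other neurons. Simulated 4-fold differences were recovered for 0 of 200 genes in this test and 8-fold ones for 69. The simulation gave a gene the same starting level in cluster 19 and in the other neurons, with the dispersion fitted in cluster 19. Recovery at the unequal levels of the data was not simulated.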

How the data were processed

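The authors deposited raw UMI counts per cell and gene, with their cell types, clusters, spliced and unspliced sizes (a signal) and doublet score, from 10x 3′ v3.1 libraries. The submitters' processing notes name Cell Ranger 5.0.0, Scanpy and mm10, without roles. Cells had at least 500 genes, and no doublet score exceeded 0.0970. The median score was 0.0617 in cluster 19, higher than in any other cell type or neuron cluster, with 0.0391 in cluster 12 and 0.0323 in cluster 10. No further doublet call was made, so doublets within the cluster were not tested for. Libraries held 611 to 2772 cells, and 1 of 136 cluster 19 barcodes occurred in another library. The mitochondrial percent was computed from the deposited counts of the 13 encoded genes.

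Counts of cluster 19 were summed per library, since cells of 1 library are not replicates. edgeR 4.0.16 (R 4.3.3; TMM, filterByExpr, robust quasi-likelihood fit) tested sums of at least 5 cells, with Benjamini-Hochberg adjustment over all genes tested, and recovered changes in simulated data at the rates given. The other 3 comparisons of single groups were not tested, since a cisplatin group kept 1 library. DESeq2 1.42.0 was an alternative. Shares were tested by exact permutation (SciPy 1.17.1) of library labels within stimulation and set. Each library was 1 animal or a pool of 2, so the permutation p-values concern differences between such libraries. The edgeR p-values rest largely on a spread estimated across genes, since few libraries remain to measure each gene's own.

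The members, the 45 gene lists, the tests and the rules were chosen with earlier results of these data known. Named were the 15 highest and 10 lowest log2 ratios of mean CPM plus 1 among genes of 50 CPM or more on 1 side in every library, list members of 20 CPM or more, and the called genes with the smallest p, of which the text prints a selection. Clstn2, Cnr1, Pnoc, Cdkn1a and the genes outside that smallest p (Gpm6a, Rps13) are named from the lists or because they were called. The E-box and homeodomain motifs and the printed promoters were chosen after the levels were seen. The count of identity genes per cell and the second set alone were added after seeing the data.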

Additional observations from a re-analysis of the deposited data

How the results depend on the processing

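Counts of called genes moved with most choices. Leaving out 1 library gave 1 to 9 genes for cisplatin (4 as reported), 0 to 37 for stimulation averaged over drug (10), 0 to 29 for PBS stim against PBS nonstim (1) and 0 to 1 for the interaction (1). Without PBS nonstim 1, which alone ties the sets for the drug, the cisplatin comparison and the interaction could not be fitted, while stimulation gave 10 and PBS stim 1. The averaged comparisons need both cisplatin groups, so neither cisplatin library was left out of them, and the interaction was not fitted for cells of at most 10% mitochondrial UMIs, where no cisplatin library kept 5 cells. DESeq2 gave 0, 0 and 0 for the first 3 comparisons, and no term for the set gave 2, 0 and 0. No filter on low counts gave 1 for cisplatin, 0 for PBS stim and 0 for the interaction, and RLE scaling gave 6 for stimulation. Cells with at least 2 of the 9 identity genes (added after seeing the data) gave 17 for stimulation. Cells of at most 10% mitochondrial UMIs gave 0 for PBS stim, and cluster 12 alone as the other neurons gave 0 for the interaction. Without a term for the set, Kcnq1ot1 turned to 0.14 for the drug (edgeR adjusted p = 0.934). The causes of these moves were not tested.

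A fit with the replicate number as a block in place of the set called 1 gene for cisplatin, 0 for stimulation and 1 (Egr1, 1.38, edgeR adjusted p = 0.0282) for PBS stim. Permuting shares within the replicate block gave exact permutation p = 0.125 for the drug (−10.9 points) and p = 0.688 for stimulation (−2.21 points). Same-numbered PBS libraries of the second set did not deviate together (r = −0.0321 across 2250 genes, which are not independent), so the numbers were not taken as pairs.

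The share in cisplatin against PBS ranged from −13.8 to −8.89 points with 1 library left out, and passed the threshold without PBS stim 1, without Cisplatin nonstim 1 and as a percent of all cells (−0.489 points). The stimulation share ranged from −5.49 to −0.113 points, and in the second set alone turned to 4.40 points. Depth limits the rest: sums of 7 cells in Cisplatin stim 1 came to 19065 UMIs, and a gene with 0 UMIs in cluster 19 is bounded at 6.21 CPM.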

Other observations

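Libraries with fewer than 5 cluster 19 cells entered no gene test. The 4 cells of Cisplatin stim 3 had a median of 2.78% mitochondrial UMIs and 43.3% unspliced molecules, inside or close to the second-set PBS libraries. Each of these cells carried at least 2 of the 9 identity genes. The single cell of Cisplatin stim 2 had 2.56% and 38.2%. The single cell of Cisplatin nonstim 2 and the 2 cells of Cisplatin nonstim 3 had 27.2% and 38.6% mitochondrial UMIs, and ribosomal protein genes made up 0.477% and 0.538% of their UMIs, against 14.5% in Cisplatin stim 3. In PBS stim 1, 2 cells held 2015 UMIs, with Egr1 at 1489 CPM.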
